A study of Mus musculus with 14 samples.

Results

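Cells labelled CDP and cells of the melanoma line B16F10 were 2 of the control samples in a mouse single-cell series on candidate tumor-leukocyte hybrid cells, and they are compared here. The members were every cell listed under those sample names: 18 CDP and 22 B16F10 cells, 40 of 648 cells in all. Each cell was sorted into a library of its own, and the labels leave the sort's markers unnamed. The libraries were made by Smart-seq2, which amplifies full-length cDNA from a single cell. CDP cells came from naive female C57BL/6J mice aged 6 to 8 weeks. The labels do not say what the letters stand for or how the cells were obtained. B16F10 is an adherent, pigmented melanoma line of C57BL/6J background, and its sample carries CTC as its cell type and batch label, with no age or sex, and the line's own name as genotype and treatment. A sample of 21 white blood cells (WBC) from naive mice, of the same strain, sex and age as CDP, served as the reference for leukocyte genes.

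Each group was 1 sample with a batch label of its own, so batch and group cannot be told apart and no test over samples was possible. Values are therefore given as pooled levels, the counts of a gene summed over a sample's cells per 1000000 summed counts (CPM), and as the lowest, median and highest cell. Depth, in units of 1000000 counts, was 1.36 to 20.7 per CDP cell, 9.99 to 23.8 per B16F10 cell and 0.283 to 6.00 per naive WBC. The genes detected were 8062 to 9376 per CDP cell and 7850 to 9329 per B16F10 cell, ranges that overlapped along most of their length. Naive WBC had 1217 to 4455 genes per cell.

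Pigment cells make melanin with a small group of enzymes and structural proteins, among them tyrosinase (Tyr), Tyrp1, Dct and Pmel, which the transcription factors Mitf and Sox10 switch on. Leukocytes share surface and cytoskeletal genes such as Ptprc (CD45), Cd53 and Rac2, and each lineage adds its own: S100a8 and S100a9 in neutrophils, Lyz2 and the C1q subunits in monocytes and macrophages, and the antigen receptor chains Cd79a and Cd79b in B cells.

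The sequence upstream of 5 genes is shown because they stand for both kinds of transcript found in CDP cells: Cd53 for leukocytes in general, S100a9 for neutrophils, C1qb for macrophages, and Dct and Tyr for pigment cells. Each line is the 250 bases before the transcription start, 5′ to 3′ on the gene's own strand, from RefSeq on GRCm38.p6. Capitals mark AGGAAG or its reverse complement CTTCCT, the core that ETS-family factors such as PU.1 recognise, and CATGTG or its reverse complement CACATG, the core of the M-box that Mitf recognises.
Cd53: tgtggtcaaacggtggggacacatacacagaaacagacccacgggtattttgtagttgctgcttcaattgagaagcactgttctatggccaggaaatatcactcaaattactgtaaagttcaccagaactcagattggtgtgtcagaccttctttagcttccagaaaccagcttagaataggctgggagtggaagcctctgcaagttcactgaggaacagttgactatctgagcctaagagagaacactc
S100a9: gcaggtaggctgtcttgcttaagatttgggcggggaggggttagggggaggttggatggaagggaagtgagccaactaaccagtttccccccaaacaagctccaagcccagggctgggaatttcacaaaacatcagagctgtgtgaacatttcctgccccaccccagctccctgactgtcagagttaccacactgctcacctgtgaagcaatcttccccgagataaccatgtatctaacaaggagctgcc
C1qb: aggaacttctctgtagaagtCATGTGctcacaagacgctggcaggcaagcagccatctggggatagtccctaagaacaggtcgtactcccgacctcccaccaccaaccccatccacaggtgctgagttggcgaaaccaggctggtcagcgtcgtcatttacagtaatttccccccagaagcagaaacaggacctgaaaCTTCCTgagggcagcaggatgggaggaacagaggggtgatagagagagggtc
Dct: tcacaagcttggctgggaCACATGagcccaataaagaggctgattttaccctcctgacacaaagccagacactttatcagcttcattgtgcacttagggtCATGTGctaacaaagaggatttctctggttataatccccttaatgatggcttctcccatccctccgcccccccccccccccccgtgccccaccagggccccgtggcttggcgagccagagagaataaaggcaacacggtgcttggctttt
Tyr: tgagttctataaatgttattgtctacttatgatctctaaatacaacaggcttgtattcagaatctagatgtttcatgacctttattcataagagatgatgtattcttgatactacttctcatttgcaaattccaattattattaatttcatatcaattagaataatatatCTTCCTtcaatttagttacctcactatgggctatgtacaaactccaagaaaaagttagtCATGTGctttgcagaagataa

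The windows lie on the minus strand at chr3:106790150-106790399 (Cd53), chr3:90695722-90695971 (S100a9), chr4:136886201-136886450 (C1qb), chr14:118052247-118052496 (Dct) and chr7:87493513-87493762 (Tyr), outside the annotated transcripts. Counting both strands, the Dct window held the M-box core at 2 places and the Tyr window at 1. The C1qb window held 1 copy of each core, and the Cd53 and S100a9 windows held neither. Of 32851 mouse windows of this length, 29.5% held AGGAAG and 12.3% held CATGTG. The longer ETS-type site GAGGAAGT, which contains AGGAAG, stood in 2.44% of them and in none of the 5 shown. The search for the shorter core was added after that result. These matches describe letters in a window and are not evidence of binding.

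CDP cells carried the melanoma program at the level of the cultured line. The 14 pigment genes on the list took 46125 CPM in CDP and 45110 CPM in B16F10, against 132.0 CPM in naive WBC. By cell, their sum ran from 25715 through a median of 46802 to 59860 CPM in CDP and from 25113 through 45546 to 56930 CPM in B16F10. The ranges overlapped almost entirely, and the highest naive WBC, at 1130.2 CPM, stood far under the lowest CDP cell.

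Gpnmb, a melanosomal membrane glycoprotein, was the most abundant of the pigment genes, with a pooled 11523 CPM in CDP and 11401 in B16F10. Tyrp1 (chromosome 4, 80834123 to 80851719, plus strand, GRCm38), an enzyme of eumelanin synthesis, had cells at 1899 to 15964 CPM with a median of 10942 in CDP. Its B16F10 cells lay at 4002 to 14412 CPM with a median of 10630.4. Tyrp1 thus overlapped between the samples, and the lowest cell of all was a CDP cell.

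Dct, which converts dopachrome, had a median of 9012 CPM in CDP cells (3835 to 13198) and 8938 CPM in B16F10 cells (3783 to 11414). Pmel, the fibril protein of melanosomes, had a median of 8356 CPM (748.3 to 14002) and 7436 CPM (1619.8 to 13644). Mlana, a melanosomal antigen, had pooled levels of 1406 and 1673 CPM, and Tyr 1174 and 1158 CPM. Over the 14 pigment genes the median log2 ratio of CDP over B16F10 was 0.04, beside 0.01 over all 7670 genes with at least 20 CPM in either sample. None of the 14 was past 4-fold. The sign of this median turned in 2 of 9 alternative settings.

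The pigment genes with the largest ratios were Oca2, a melanosomal transporter, at 119.0 against 55.0 CPM, and Trpm1, a cation channel, at 38.8 against 21.1 CPM. Oca2 reached at least 1 CPM in 15 of 18 CDP cells and 12 of 22 B16F10 cells. Among the regulators, Sox10 was at 268.6 and 243.9 CPM, Pax3 at 240.3 and 263.4 CPM, and Mc1r, the melanocortin receptor, at 324.6 and 260.3 CPM. All 3 were present in all 40 cells. Mitf, the master regulator of pigment genes, was at 165.1 CPM in CDP and 85.7 CPM in B16F10, a log2 ratio of 0.95. Its CDP cells ran from 9.55 through 114.1 to 682.7 CPM and its B16F10 cells from 2.03 through 71.8 to 268.6 CPM, so that the ranges overlapped. Kit and Lef1, 2 further regulators on the list, had at most 0.0061 CPM in either sample.

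A broader set of tumor genes also differed little. The 226 genes with at least 100 CPM in B16F10 and at most 1 CPM in naive WBC, chosen without CDP values, had a median log2 ratio of -0.11 in CDP, and 224 of them lay within 2-fold. The exceptions were 2 genes at least 2-fold lower, and none was past 4-fold. Of the 7670 genes with at least 20 CPM in either sample, 93.5% lay within 2-fold. This set's minimum of 100 CPM is higher, and no general share at that minimum is given. Its closeness is therefore not read as particular to tumor genes. Their sum ran from 30274 through 37876 to 44196 CPM in CDP cells and from 34868 through 39882 to 45179 CPM in B16F10 cells. This set was defined after the data had been seen, and its B16F10 levels were part of the choice.

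**Figure D1:**
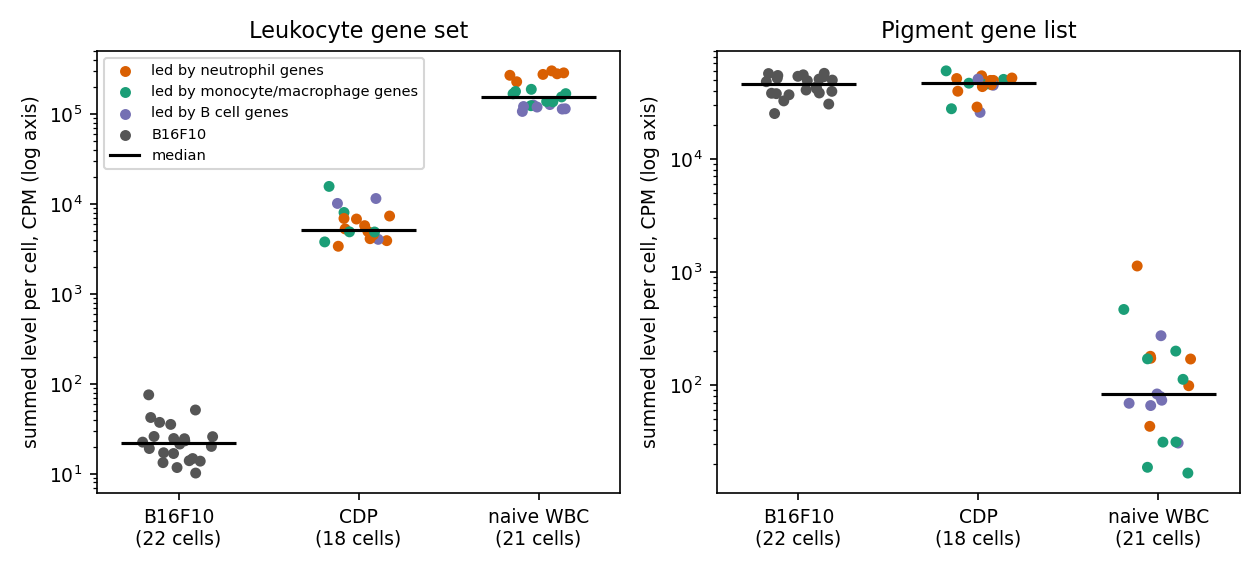
Summed level per cell of the leukocyte gene set (330 genes, left) and of the 14 pigment genes (right), in CPM on log axes, with 1 point per cell and a bar at the median. CDP cells sit with B16F10 for pigment genes (medians 46802 and 45546 CPM) and lie between B16F10 and naive WBC for leukocyte genes (3385 to 15669 CPM). The leukocyte gene set was chosen to be low in B16F10 and high in naive WBC.

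Beside that program, every CDP cell carried leukocyte transcripts. To measure them together, 330 genes were taken with at least 100 CPM in naive WBC and at most 1 CPM in B16F10, again without CDP values and after the data had been seen. Their sum was 3385 to 15669 CPM in the 18 CDP cells with a median of 5110.1 CPM. In B16F10 cells it was 10.2 to 75.4 CPM, which the choice of genes keeps low, and in naive WBC it was 106843 to 301947 CPM. The 3 groups of cells did not overlap, but the choice of genes itself sets B16F10 low and naive WBC high. Pooled, 321 of the 330 genes were higher in CDP than in B16F10. With B16F10 at 1 CPM or less by choice, a low CDP level is enough for that. No share over all genes is given beside it. The excess of CDP over B16F10 was 4.003% of the naive WBC level. A CDP cell had 75 to 151 of the 330 genes at 1 CPM or more, a B16F10 cell at most 6, and a naive WBC 111 to 211. The B16F10 and naive WBC numbers are again shaped by the choice.

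Windows upstream of the start were found for 237 of these 330 genes, and AGGAAG stood in 50.2% of them, beside 29.5% of all windows. GAGGAAGT stood in 7.17%, beside 2.44%. Of the pigment genes 9 had a window, and 6 of those held CATGTG. These shares were not tested.

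A gene was called past the fold where its pooled levels differed at least 4-fold, the higher sample had at least 20 CPM, and at least 50% of that sample's cells had at least 1 CPM. By this rule 93 of 7670 genes, 1.21%, were past the fold. The 77 higher in CDP made up 1.0% and the 16 lower 0.209%. The median log2 ratio over all genes was 0.01, and 93.5% of them lay within 2-fold. Of the 77 higher genes, 75 were also at least 4-fold higher in naive WBC than in B16F10, and 71 had at least 100 CPM in naive WBC. The shares of all 7670 genes with these 2 properties are not given. Under 20 CPM in naive WBC were 2 of the 77, beside 3270 of the 7670. At most 1 CPM in B16F10 was found for 49 of the 77. These 49 reached the minimum only through CDP, and a low naive WBC level is enough to be 4-fold above their B16F10 level. A further 54 genes were past 4-fold higher in fewer cells than the rule asks, and 3 were past 4-fold lower.

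**Figure D2:**
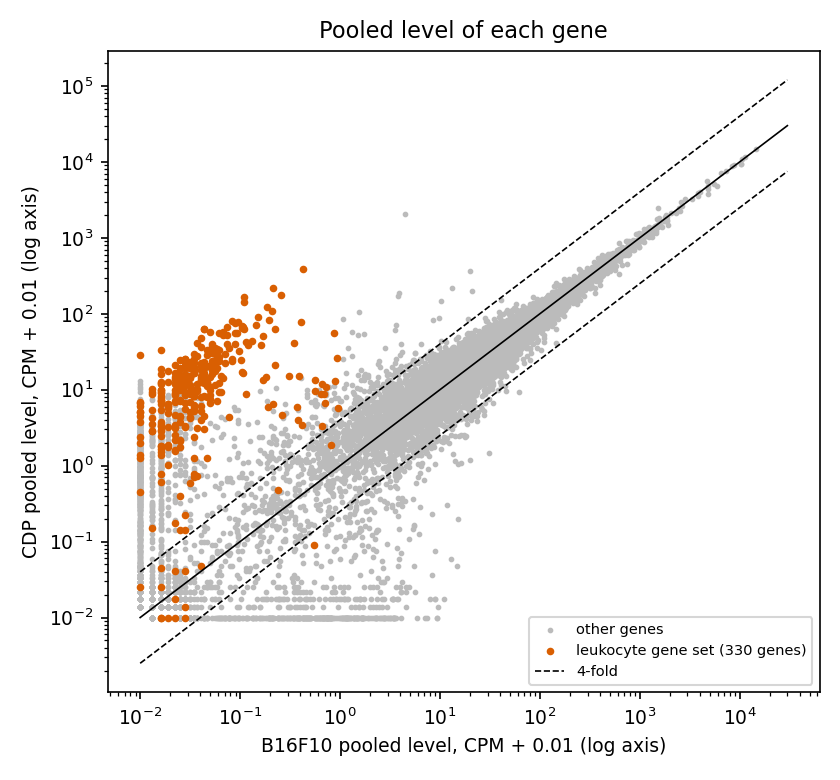
Pooled level of each gene in B16F10 (x) and CDP (y), in CPM with 0.01 added, on log axes, with 1 point per gene. The line is equality and the dashes mark 4-fold. The leukocyte gene set, orange, was chosen to be low in B16F10 and has 321 of 330 genes higher in CDP. Of the 7670 genes with at least 20 CPM in either sample, 93.5% lie within 2-fold.

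Of the 18 genes on the pan-leukocyte list, 10 were past 4-fold higher in CDP and none lower. With 20 CPM in either sample as the minimum, 12 could be compared, and 10 of these reached it only in CDP, so that they had to be higher there. The same holds for 10 of 11 monocyte/macrophage genes and for all neutrophil, B-cell and class II genes that reached the minimum, and no median is given for these lists. Cd53, a tetraspanin of the leukocyte surface (ENSMUSG00000040747.9, chromosome 3, 106759921 to 106790149, minus strand), was at 63.8 CPM in CDP, 0.0336 in B16F10 and 1025 in naive WBC. Its CDP cells ran from 1.13 through 40.1 to 249.9 CPM, while B16F10 cells had at most 0.2 CPM. Every CDP cell was above every B16F10 cell. The ratio of 1901 rests on 11 counts in B16F10 and has a 95% exact interval of 1062 to 3809. Such intervals cover counting error only, since PCR copies were not marked.

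Only 3 of the 7670 genes, 0.0391%, had every CDP cell above every B16F10 cell, and none had every CDP cell below. The second of them was Rac2, a small GTPase of blood cells (chromosome 15, 78559167 to 78572783, minus strand). Rac2 had CDP cells at 1.45, 74.5 and 295.8 CPM as lowest, median and highest, and B16F10 cells at 0 to 0.600 CPM. The third was Tmsb4x, thymosin beta-4, an actin-binding peptide (chromosome X, 167207093 to 167209315, minus strand). Tmsb4x ran from 75.1 through 248.0 to 399.1 CPM in CDP cells and from 0.149 through 12.2 to 30.1 CPM in B16F10 cells, with 1050.4 to 7718 CPM in naive WBC. Tmsb4x has near-identical copies in the genome, so its level is uncertain.

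Ptprc was at 24.9 CPM in CDP, 0.0915 in B16F10 and 587.1 in naive WBC, and reached 1 CPM in 12 of 18 CDP cells and no B16F10 cell. After each cell was thinned to 500000 counts, at least 1 Ptprc count remained in 12 of 18 CDP cells and 1 of 22 B16F10 cells. For Cd53 these numbers were 17 of 18 and 1 of 22, and without thinning 18 of 18 and 7 of 22. Itgb2, the beta chain of leukocyte integrins, was at 62.8 CPM in CDP and 0.0336 in B16F10, and Cd37, a tetraspanin best known from B cells, at 47.3 and 0.0305 CPM. Lsp1, an actin-binding protein, had 109.8 CPM, Laptm5 82.2 CPM and Lcp1 70.2 CPM in CDP, each with under 0.2 CPM in B16F10.

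The list was not blank in the tumor line. Arhgdib, a regulator of small GTPases, was at 815.3 CPM in CDP and 918.9 CPM in B16F10, and Ptpn6, a phosphatase, at 52.8 and 24.7 CPM. The whole list took 0.149% of the counts of the median CDP cell and 0.0920% of those of the median B16F10 cell. Without its 5 members at or over 1 CPM in B16F10, a choice made after seeing the data that itself keeps the B16F10 share near 0, the shares were 0.0494% and 9.19e-05%.

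Clec4d, a C-type lectin receptor of myeloid cells, was at 33.8 CPM in CDP and had 2 counts in B16F10, a ratio of 5541 (exact interval 1533 to 45759). Cxcl2, a chemokine that attracts neutrophils, was at 28.5 CPM in CDP with 0 counts in B16F10, and so at least 3119-fold higher when 3 counts over the group are taken as the floor. It reached 1 CPM in 11 of 18 CDP cells.

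Slpi, an inhibitor of neutrophil proteases, was at 167.9 CPM against 0.101 CPM, with a highest CDP cell of 1702 CPM. Psmb8, an immunoproteasome subunit, was at 21.02 against 0.0122 CPM, and Vsir, the checkpoint protein VISTA, at 24.5 against 0.0153 CPM. C5ar1, the receptor for complement C5a, Cd300lf, an inhibitory receptor, and Nfam1, an activating receptor, had 29.7, 25.4 and 58.2 CPM in CDP and at most 0.0397 CPM in B16F10. In naive WBC the lowest of these genes was Cxcl2 at 239.5 CPM, and the highest was Slpi at 1185 CPM.

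Lineage genes were split between CDP cells. Each cell was assigned the list with the highest summed CPM among neutrophil, monocyte/macrophage and B-cell genes, a rule set after the data had been seen. Neutrophil genes led in 10 of 18 CDP cells (55.6%, exact 95% interval 30.8 to 78.5%), monocyte/macrophage genes in 5 (27.8%, 9.69 to 53.5%) and B-cell genes in 3 (16.7%, 3.58 to 41.4%). The intervals cover counting error only. In naive WBC the same lists led in 6, 8 and 7 of 21 cells. A sort can set such shares.

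The list sums that set the assignment are described next. By the rule, a list had to be the highest of the 3 in the cells it led. These sums, and the list members named below, are therefore no support for the assignment. The neutrophil list summed to 700.2 to 2678 CPM in the 10 cells it led and to at most 80.5 CPM in the other 8. The B-cell list summed to 462.5, 1093 and 1692 CPM in its 3 cells and to at most 3.48 CPM in the other 15. The monocyte/macrophage list summed to 3390.2, 4904, 7509, 7867 and 15218 CPM in its 5 cells. It also held 59.2 to 784.9 CPM in the other 13, where Tyrobp and Lyz2, genes that neutrophils use too, were among its members.

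**Figure D3:**
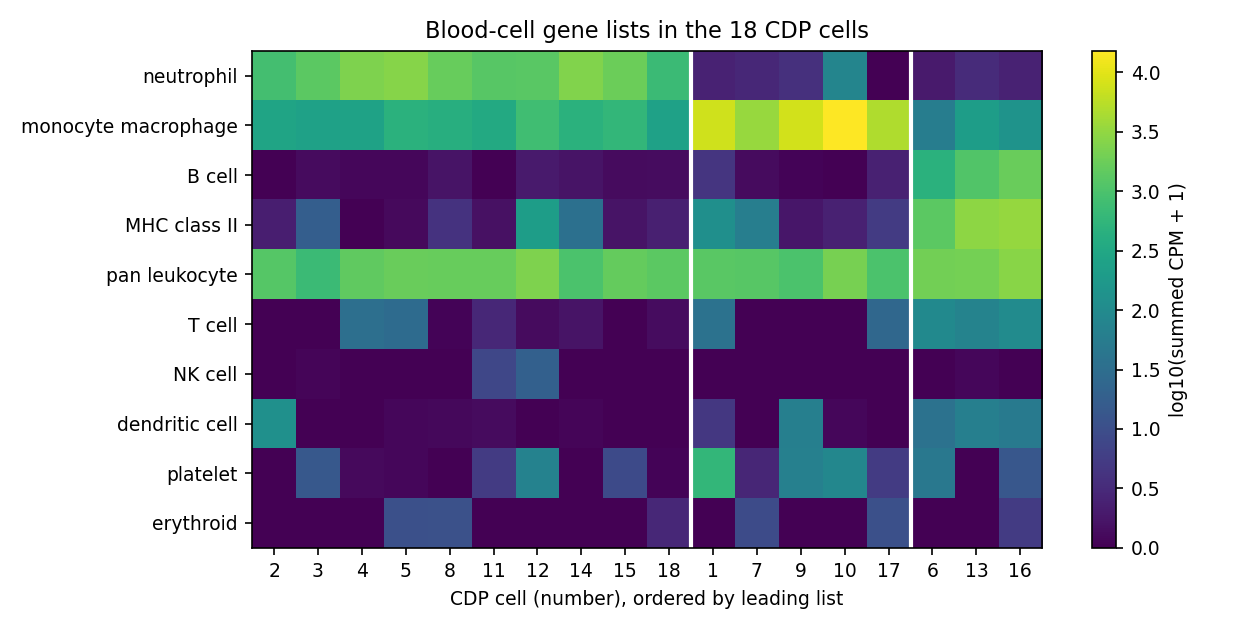
Summed level of 10 blood-cell gene lists (rows) in each of the 18 CDP cells (columns), as log10 of CPM plus 1, with white lines between cells led by neutrophil (10), monocyte/macrophage (5) and B-cell genes (3). Neutrophil genes are at 700.2 CPM or more in the first block and at most 80.5 CPM elsewhere, and B-cell genes are at 462.5 CPM or more in the last block and at most 3.48 CPM elsewhere. The sums of the neutrophil, monocyte/macrophage and B-cell lists also set the blocks.

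Of the 12 neutrophil genes, 6 had at least 20 CPM in CDP and none in B16F10, and 5 were past 4-fold higher in CDP. S100a8, a subunit of calprotectin, was at 684.8 CPM in the neutrophil-led cells, 0.633 in the monocyte-led and 0.770 in the B-led cells. S100a9, its partner, was at 388.4, 0.408 and 0.169 CPM. Csf3r, the receptor for G-CSF (chromosome 4, 126024550 to 126044440, plus strand), was at 239.0, 22.4 and 0.0481 CPM, and Cxcr2, a chemokine receptor, at 57.8, 0.0563 and 0.0963 CPM. Mmp9, a gelatinase, was at 54.4 CPM over all CDP cells and 1.73 CPM in B16F10.

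Genes of immature neutrophils were at or near 0: Camp had no count in CDP or naive WBC, Ltf had 0.00383 CPM in CDP, and Ngp reached 1 CPM in 1 CDP cell. Ly6g, the surface marker of mature mouse neutrophils, was at 3.22 CPM in CDP and 0.113 CPM in naive WBC. Because Camp and Ly6g were at or near 0 in naive WBC too, where neutrophil genes led in 6 cells, no maturity is read from these genes. Il1b, the inflammatory cytokine interleukin-1 beta, was at 309.0 CPM in the neutrophil-led CDP cells, 0.373 CPM in the other CDP cells and 0.244 CPM in B16F10. In naive WBC it stood at 18234.5 CPM in neutrophil-led cells and 195.6 CPM in the others.

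Of the 20 monocyte/macrophage genes, 11 had at least 20 CPM in CDP, 1 of them (Cd68) also in B16F10, and 4 were past 4-fold higher in CDP. Lyz2, a lysozyme (chromosome 10, 117277331 to 117282321, minus strand), was the most abundant leukocyte gene on the lists, at 2045 CPM in CDP, 4.51 CPM in B16F10 and 33233 CPM in naive WBC. It was at 7203 CPM in the monocyte-led cells, 147.9 in the neutrophil-led and 3.68 in the B-led cells. Lyz2 has a near-identical neighbour, Lyz1, with which it can share reads. Tyrobp, an adaptor of myeloid receptors, was at 171.3, 133.8 and 5.2 CPM in the same order, and reached 1 CPM in 16 of 18 CDP cells.

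The complement subunits marked a part of the monocyte-led cells. C1qb (chromosome 4, 136880129 to 136886187, minus strand) was at 250.5 CPM in the monocyte-led cells, 0.108 in the neutrophil-led and 0.0481 in the B-led cells, and reached 1 CPM in 4 CDP cells. C1qc and C1qa also reached 1 CPM in 4. Ccr2, the receptor that guides monocytes out of the marrow, was above 1 CPM in 1 CDP cell and pooled at 40.0 CPM over the monocyte-led cells. Fn1, fibronectin, which macrophages and tumor cells both make, was at 697.5 CPM in the monocyte-led cells, 13.2 in the neutrophil-led, 0.457 in the B-led and 20.9 CPM in B16F10. Ednrb, an endothelin receptor listed as a melanocyte regulator, was at 127.2 CPM in the monocyte-led cells and at most 0.0808 CPM in the others, with 0.0488 CPM in B16F10 and 623.1 CPM in naive WBC. It reached 1 CPM in 3 CDP cells.

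Of the 8 B-cell genes, 3 had at least 20 CPM, and none met the condition on cells because 3 to 5 CDP cells held them. Cd79a, a chain of the B-cell receptor complex (chromosome 7, 24897381 to 24902197, plus strand), was at 234.0 CPM in the B-led cells and at most 0.507 CPM in the others, with 0.0427 CPM in B16F10 and 1731 CPM in naive WBC. Cd79b was at 276.0 and Ms4a1 (CD20) at 243.3 CPM in the B-led cells. Class II genes followed them. H2-Aa was at 415.1 CPM in the B-led cells, 1.56 in the neutrophil-led and 0.239 in the monocyte-led cells, and Cd74, the invariant chain, at 1016.4, 12.1 and 3.43 CPM. The list of 11 class II genes summed to 1363, 3007 and 3257 CPM in the 3 B-led cells and to at most 211.7 CPM in the other 15.

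Markers of other blood and tissue cells were low, but many could not be judged against naive WBC. Cd3e and Cd3d, which define T cells, had no count in CDP, B16F10 or naive WBC. They are listed at 0 in all of these cells, so nothing is read from their 0 in CDP. Cd3g, another chain of that receptor, was at 7.13 CPM in the B-led cells, from 1 cell. Cd2, on the T-cell list, was at 79.7 CPM in the B-led cells and at most 0.175 CPM in the others, and mouse B cells express it too.

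Of the NK-cell genes, Klrd1 reached 1 CPM in 1 CDP cell, and Nkg7, Gzma and Prf1 had no count in CDP or naive WBC. Pf4, a platelet chemokine that macrophages can also make, was at 110.7 CPM in the monocyte-led cells, with a highest cell of 574.1 CPM and the next at 84.3 CPM. The platelet genes Ppbp and Gp9 had no count in either CDP or naive WBC. Hdc, the histamine-forming enzyme of mast cells, basophils and neutrophils, was at 15.1 CPM in CDP, 0.0214 in B16F10 and 564.8 in naive WBC, while the mast-cell genes Cpa3 and Fcer1a were at 0. Erythroid, fibroblast and epithelial lists summed to 1.93, 22.4 and 3.09 CPM in CDP and to 1.32, 26.5 and 0.0336 CPM in B16F10. Among the fibroblast genes, Col1a1 and Col3a1, collagen chains, reached 1 CPM in 1 CDP cell each. Egfl7, the endothelial list's most abundant gene, was at 59.7 CPM in CDP and 43.3 CPM in B16F10 against 0.301 CPM in naive WBC.

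The assignment was also set against genes that were not on the lists. For each lineage the 20 genes most particular to the naive WBC cells it led were taken, outside the lists. Of these, 19, 18 and 18 of 20 were higher in the CDP cells led by neutrophil, monocyte/macrophage and B-cell genes than in the remaining CDP cells. No share over all genes is given beside these counts. Any difference counted as higher, also a small one such as Sgms2 at 1.54 against 1.03 CPM. The neutrophil genes summed to 153.5 to 992.3 CPM in matching CDP cells and 0.999 to 124.7 CPM in the others, which did not overlap. The B-cell genes summed to 358.7 to 1522 CPM against 0 to 137.2 CPM, with no overlap either. The monocyte/macrophage genes overlapped, at 15.7 to 2262 CPM against 0.477 to 191.1 CPM.

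Examples from both sides of these counts follow. Trem1, an amplifying receptor of neutrophils and monocytes, was at 39.2 CPM in neutrophil-led CDP cells and 0.0622 CPM in the other CDP cells. Prg4, a lubricating proteoglycan, was at 286.0 CPM in the monocyte-led and 0.126 CPM in the other cells. Ly6d, a surface protein of B cells, was at 106.4 CPM in the B-led and 0.0273 CPM in the other cells. Pou2af1, a B-cell transcriptional coactivator, was at 37.4 and 0.00911 CPM.

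The leukocyte gene set overlapped between CDP cells of different lead. By cell its sums were 3385 to 7338 CPM (median 5110.1) in the neutrophil-led, 3783 to 15669 CPM (median 4897) in the monocyte-led and 4040.0 to 11497 CPM (median 10136) in the B-led cells. Pooled, the excess over B16F10 was 1.86%, 5.07% and 6.42% of the level in naive WBC cells led by the same list. Without the highest cell of each kind, an alternative chosen after seeing the data, it was 1.75%, 3.20% and 5.73%. The pooled monocyte-led level was 8025 CPM with that cell and 5073 CPM without it, above and below the neutrophil-led 5299.8 CPM. The pigment sums of these CDP cells had medians of 48154, 46583 and 44669 CPM and overlapped as well. Whether a CDP library held the RNA of 1 cell or of more was not tested, and no doublet caller was run.

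Several genes of the early stress response were higher in CDP. Of the 18 immediate-early genes, 13 had at least 20 CPM, 12 of them had positive log2 ratios with a median of 1.88, and 5 were past 4-fold higher in CDP: Fos, Egr1, Dusp1, Btg2 and Zfp36. Of the 13, 6 reached 20 CPM only in CDP, so that they had to be higher there, and Fos, Btg2 and Zfp36 were among them. Over the other 7 the median was 0.91. The list summed to 1645 CPM in CDP and 546.3 CPM in B16F10, from 526.8 through 1638 to 2694 CPM in CDP cells and from 370.0 through 512.8 to 1105.1 CPM in B16F10 cells. The ranges overlapped at the low end of CDP.

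Fos, a subunit of the AP-1 transcription factor (chromosome 12, 85473890 to 85477273, plus strand), was at 185.1 CPM in CDP and 3.92 in B16F10, with CDP cells at 0.417, 160.1 and 572.4 CPM as lowest, median and highest. B16F10 cells had 0.0842, 0.298 and 48.7 CPM. Egr1, a zinc-finger factor, had medians of 57.9 and 0.120 CPM, and Dusp1, a phosphatase of MAP kinases, 406.5 and 7.22 CPM. Btg2 was at 149.1 against 10.3 CPM and Zfp36, which destabilises cytokine mRNA, at 82.9 against 8.56 CPM. Jun, at 48.0 against 25.6 CPM, and Ier3, at 101.7 against 154.6 CPM, were not past the fold.

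These genes were abundant in naive WBC, where the list summed to 21222 CPM, and the CDP excess was 5.18% of that level, beside 4.003% for the leukocyte gene set. They also moved with the lineage. The list stood at 1773 CPM in the neutrophil-led, 1939.8 CPM in the monocyte-led and 681.7 CPM in the B-led CDP cells, and at 54822, 32856 and 1320.5 CPM in naive WBC led by the same lists. Fos was at 213.0, 230.1 and 8.06 CPM in the 3 kinds of CDP cell. The part of the leukocyte transcripts in this difference was not tested.

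**Figure D4:**
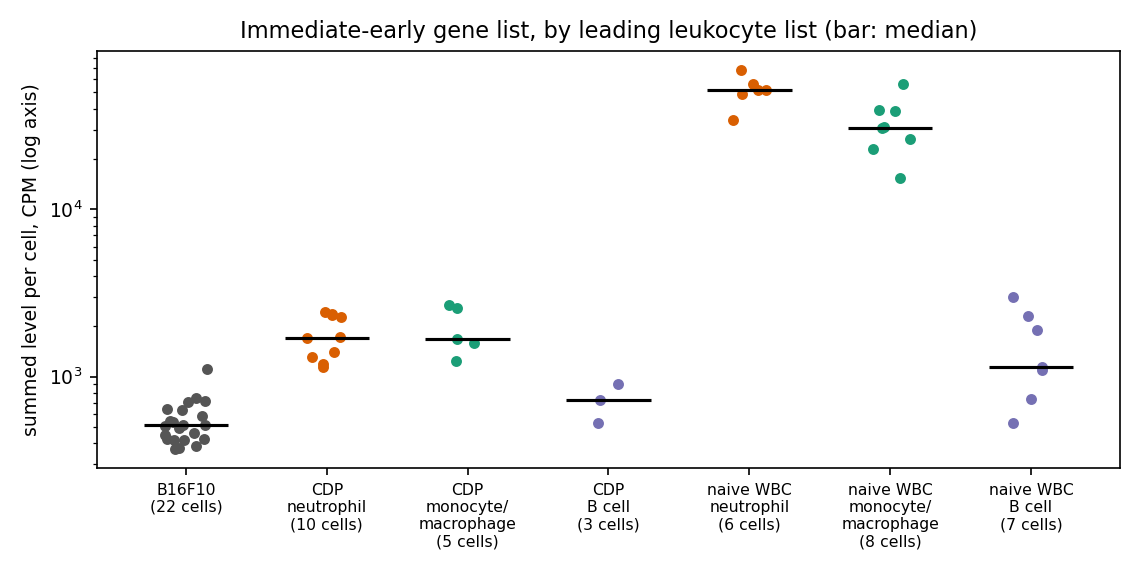
Summed level of the immediate-early genes in each cell, in CPM on a log axis, for B16F10 and for CDP and naive WBC cells by leading list, with a bar at the median. B-led CDP cells (526.8 to 904.4 CPM) lie within the B16F10 range (370.0 to 1105.1 CPM), and CDP cells led by the other lists lie at 1141 CPM or more.

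Few of the genes low in naive WBC were past 4-fold, and shifts smaller than that are described further on. The genes under 20 CPM in naive WBC numbered 3270. Of these, 2 were past 4-fold higher in CDP (0.0612%) and 12 lower (0.367%), and the median log2 ratio was -0.00. The 2 higher genes were Pcsk7, a proprotein convertase, and Zranb1, a deubiquitinase. Pcsk7 was at 40.1 CPM in CDP and 6.44 CPM in B16F10 and reached 1 CPM in 14 of 18 and 5 of 22 cells, and its cells overlapped, at 0 to 91.9 CPM and 0 to 52.8 CPM. Zranb1 was at 20.3 and 4.05 CPM.

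Other higher genes with under 100 CPM in naive WBC were Mxi1, a repressor that opposes Myc and is induced by hypoxia, at 30.0 against 5.67 CPM, Sowahc at 24.4 against 5.34 CPM, Dpy19l3 at 32.0 against 7.91 CPM and Fam20c, a kinase of secreted proteins, at 21.4 against 4.85 CPM. Each had cells at 0 in both samples.

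The 16 lower genes were of low level, at 20.1 to 45.7 CPM in B16F10, and all had B16F10 cells at 0. All 16 reached the minimum of 20 CPM only in B16F10, so that they had to be lower in CDP. Of the 16, 7 stayed past the fold with the mean of cells, 6 with the median and 8 after thinning. Pccb, a subunit of the mitochondrial propionyl-CoA carboxylase (chromosome 9, 100982032 to 101034898, minus strand), had the largest ratio. It was at 1.46 CPM in CDP and 30.7 CPM in B16F10, 21.1-fold lower in CDP. Its B16F10 cells ran from 0 through 24.7 to 93.5 CPM, with 16 of 22 at 1 CPM or more, and its CDP cells from 0 through 0.0279 to 33.7 CPM, with 6 of 18. The ranges overlapped.

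Usp54, a ubiquitin-specific protease family member, was at 1.18 and 20.1 CPM, 17.0-fold lower in CDP. The others lay between 4.02-fold and 6.09-fold lower: Zfp52, Ppwd1, Katnal1, Col4a2, Ulk2, Klhdc8b, Nbas, Mxra7, Cry2, Osbpl7, Pdss2, Lrch1, Rab3ip and Nedd1. Among them Cry2 is a repressor of the circadian clock (4.57 against 20.5 CPM), Col4a2 a basement membrane collagen (3.96 against 20.5 CPM), Ulk2 a kinase of autophagy (6.68 against 34.1 CPM) and Pdss2 an enzyme of coenzyme Q synthesis (5.99 against 25.8 CPM). Lrch1 reached 1 CPM in 20 of 22 B16F10 cells and 9 of 18 CDP cells. At a minimum of 100 CPM in place of 20 no gene was past 4-fold lower.

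Genes of cholesterol synthesis leaned to lower levels in CDP, without passing the fold. Of 15 with at least 20 CPM, 14 had negative log2 ratios, with a median of -0.64, and 1, Mvd, was 2-fold lower. Fdps, farnesyl diphosphate synthase, was at 331.4 CPM in CDP and 622.6 CPM in B16F10, with cells at 58.8 to 786.2 CPM (median 276.0) and 161.5 to 1515 CPM (median 562.3). Msmo1 was at 219.3 against 353.9 CPM, and Insig1, the sterol sensor's partner, at 169.6 against 278.4 CPM. The list sum overlapped between cells, at 825.8 to 5650.2 CPM in CDP and 740.6 to 5276 CPM in B16F10.

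Targets of p53 had a median log2 ratio of -0.54 with 7 of 9 negative. The pooled list sum was 1469 CPM in CDP and 1874 CPM in B16F10. The median cell went the other way, at 1063.1 CPM in CDP and 931.7 CPM in B16F10. The cells overlapped, at 518.5 to 4081 CPM in CDP and 518.7 to 5895 CPM in B16F10, so no direction is read from this list. Cdkn1a, a cell-cycle inhibitor, was at 218.8 against 318.7 CPM, and Ccng1 at 372.9 against 560.9 CPM. Hypoxia genes had a median of 0.52 with Mxi1 past the fold. Ero1a, an oxidase of the endoplasmic reticulum, was at 393.0 against 246.4 CPM, while Bnip3 was at 224.8 against 226.2 CPM. Class I genes had a median of 0.59, or 0.42 over the 5 with at least 20 CPM in B16F10, and H2-K1 was at 235.1 against 137.5 CPM and H2-D1 at 861.7 against 617.6 CPM, with 2018 and 5949.7 CPM in naive WBC. Reads of these class I genes can be shared with their near-identical relatives. Among checkpoint genes, Cd24a, a ligand on blood and tumor cells, was past the fold at 35.8 against 0.0671 CPM with 943.4 CPM in naive WBC. Sirpa was at 327.5 against 324.2 CPM and Cd47, its ligand, at 138.1 against 86.9 CPM.

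The genes of mesenchymal or dedifferentiated melanoma had a median log2 ratio of 0.06, with none of 6 past the fold. Vim, vimentin, was at 615.4 against 568.1 CPM, Sparc, a matrix protein, at 573.2 against 632.1 CPM, and Cd44, a hyaluronan receptor, at 454.3 against 455.5 CPM. Cd81 and Cd9, tetraspanins listed for macrophage fusion, were at 1242.9 against 1441 CPM and 100.3 against 109.8 CPM.

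**Figure D5:**
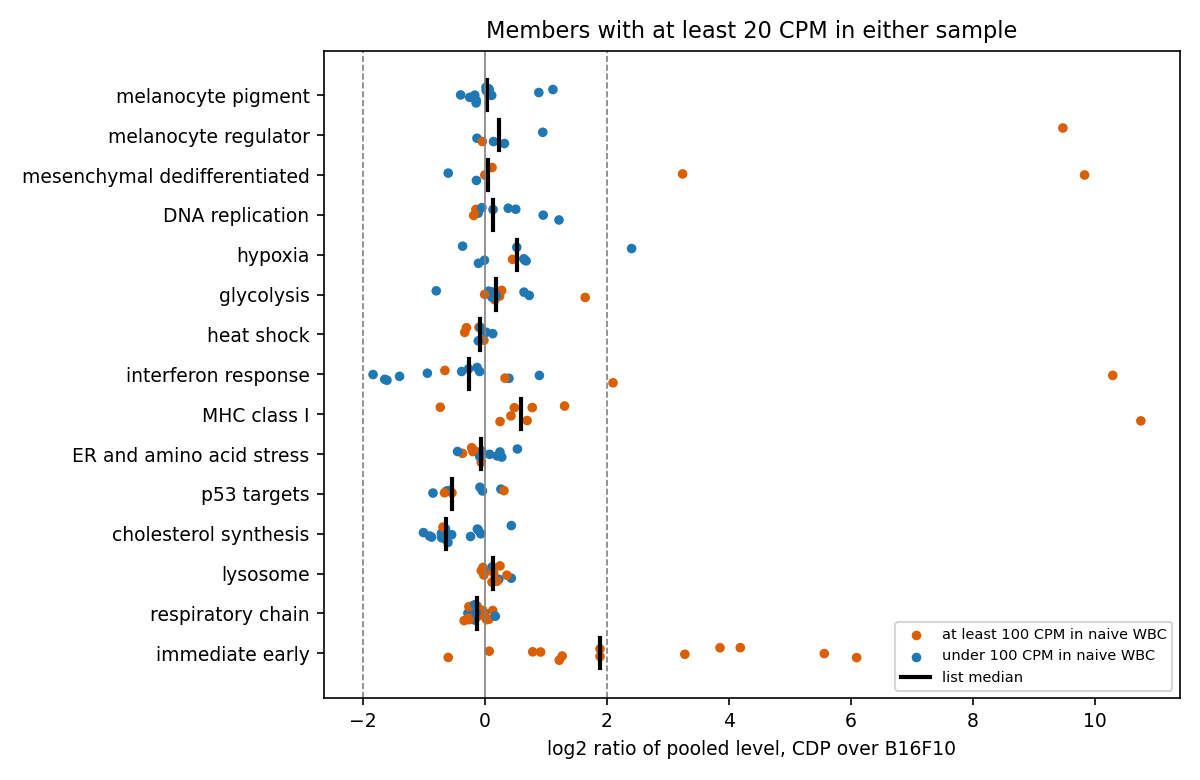
Log2 ratio of pooled level, CDP over B16F10, for members with at least 20 CPM in either sample of 15 lists, with 1 point per gene, orange where naive WBC had at least 100 CPM, dashes at 4-fold and a bar at the list median. The immediate-early list has the highest median, 1.88, cholesterol synthesis the lowest, -0.64, and pigment genes lie at 0.04. Of the 13 immediate-early genes shown, 6 reached 20 CPM only in CDP and so had to be higher there. The median over the other 7 is 0.91.

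Heat shock genes (median -0.09), genes of the respiratory chain (-0.14), lysosome (0.13), glycolysis (0.17) and stress of the endoplasmic reticulum and amino acid supply (-0.06) had no member past 4-fold. Hspa8 was at 4799 against 5926 CPM, Ctsd at 4864 against 4855 CPM, and Aldoa at 7192 against 6437 CPM. The sign of the last of these medians turned in 3 of 9 alternative settings. Gapdh was listed at 30.8 and 53.6 CPM, far under Aldoa, and it has many near-identical copies.

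Genes of DNA replication had a median log2 ratio of 0.13, whose sign turned in 2 of 9 alternative settings. Mcm2, a helicase subunit, was at 165.5 and 178.7 CPM, Pcna, the polymerase clamp, at 93.6 and 106.5 CPM, and Mcm6 at 90.8 and 39.2 CPM. The list sum was 318.7 to 1906 CPM in 17 CDP cells and 336.0 to 1379.5 CPM in B16F10 cells. The CDP cell of fewest counts was monocyte-led and stood apart with 6199.6 CPM. The same cell had the highest sum of mitosis genes, 822.1 CPM, against at most 311.6 CPM in B16F10. As a whole the mitosis list was lower in CDP, at 77.5 CPM pooled against 101.0 CPM in B16F10. Its cell medians were 72.1 and 94.2 CPM, and the cells overlapped. Mki67, a proliferation marker, was at 6.86 CPM in CDP from 4 of 18 cells, with 0 counts in B16F10. That level is under the minimum of 20 CPM, so no ratio is given for Mki67. Cdk1 was at 29.6 and 38.3 CPM.

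The interferon genes differed widely between cells. Their median log2 ratio was -0.27, and its sign turned in 3 of 9 alternative settings. Of the 15 genes with at least 20 CPM in either sample, 3 reached it only in CDP. Over the other 12 the median was -0.52. The list sum had a median of 284.3 CPM in CDP and 383.3 CPM in B16F10, with 1 neutrophil-led CDP cell at 8472 CPM and 1 B16F10 cell at 11665 CPM. Rsad2, an antiviral enzyme, was at 185.8 against 357.9 CPM with highest cells of 1556 and 3976 CPM, and Ifit2 at 40.8 against 145.6 CPM. Oasl2 was at 22.9 against 0.0183 CPM, from 3 CDP cells, with 276.3 CPM in naive WBC.

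As whole transcriptomes, CDP cells stood with B16F10. Pearson's r between cells, on log2 of CPM plus 1 over 7582 genes, had a median of 0.466 within CDP, 0.505 within B16F10 and 0.478 between the samples. Between CDP and naive WBC cells it was 0.236. The r values share genes and libraries, and depth is lower in naive WBC. They are given as a description only.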

How the data were processed

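Single cells were profiled by Smart-seq2, and the deposited table holds raw read counts for 21138 genes in 648 cells of 14 samples, as deposited by the authors. Per the submitters' processing notes, Trim Galore, HISAT2, SAMtools, featureCounts, BWA and Picard were used with mm10. Versions and settings: not given in the sources used here. Of the nonzero values 56.7% were even, and values of 2 were 3.59 times as frequent as values of 1, and reads without molecular identifiers are not independent molecules. Whether a gene's reads were split from near-identical copies, and whether strand was used, is not known.

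Cells were assigned to samples by the deposited list of cell names. No pair of cells had identical counts, 0 cell names occurred in more than 1 sample, and no cell was filtered out. Counts were summed over the 18 CDP, 22 B16F10 and 21 naive WBC cells and divided by the summed total. With 1 sample a side there is no test. Intervals are exact 95% counting intervals. For detection, cells were thinned to 500000 counts, which left out 0 CDP, 0 B16F10 and 4 naive WBC cells.

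Named genes were the 12 protein-coding genes with the largest ratio past the fold, higher and lower alike, up to 4 members of each list with the highest level, and Ptprc, Cd74, H2-Aa, Lyz2, C1qb, Cd79a, Cd3e, Pmel, Tyrp1, Dct, Mlana, Mitf, Sox10 and Mki67. Xist, also on the rule, was not analysed here. Other genes named were chosen after their values were seen. The 34 lists hold 435 genes, 4 matched by an older symbol, and 9 further entries were unmatched. The members and lists were chosen with earlier results of these data known. The leading-list rule, the 330-gene and 226-gene sets, the lineage genes outside the lists (at least 200 CPM in the naive WBC that a list led) and the AGGAAG search were chosen after the data had been seen.

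Gene coordinates are from GENCODE vM21 (GRCm38), which matched 18884 symbols, and upstream windows are from RefSeq. Python 3.11.15, NumPy 2.4.6, pandas 2.3.3, SciPy 1.17.1 and matplotlib 3.10.9 were used. R 4.3.3 with edgeR 4.0.16 and DESeq2 1.42.0 gave scaling factors only. Scripts were tested on simulated data.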

Additional observations from a re-analysis of the deposited data

How the results depend on the processing

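The difference in each share below kept its direction, and none of the 93 genes past the fold changed sign. Against 77 genes higher and 16 lower, the counts were 179 and 153 with the median of cells (42 of the 77 and 6 of the 16 shared), 122 and 25 at a minimum of 5 CPM, 13 and 0 at 100 CPM, and 254 and 158 at 2-fold. Without the condition on cells 131 were higher. The lower count was 9 with the mean of cells (7 of the 16 shared) and 10 without the deepest cell of each sample, where 9 of the 16 genes were shared. Of the 16, 8 were shared after thinning. Both scalings gave 76 and 16. The pan-leukocyte share per cell, 0.0566 points higher in CDP, was 0.0595 with the mean, 0.0607 summed, 0.0617 without the deepest cells, 0.0623 thinned and 0.0632 over protein-coding genes without mitochondrial and ribosomal protein genes. The pigment share, 0.126 points higher, was 0.0387, 0.101, 0.395, 0.105 and 0.0936 in that order. Alternatives chosen after seeing the data gave 2 higher genes among those under 20 CPM in naive WBC. CDP cells led by neutrophil, monocyte/macrophage or B-cell genes gave 116, 184 and 230 higher and 36, 201 and 383 lower. Without the CDP cell of fewest counts the shares differed by 0.0621 and 0.147 points, and without the 5 pan-leukocyte members at or over 1 CPM in B16F10 the first was 0.0494 points, where that choice itself keeps the B16F10 share near 0 and fixes the direction. The cause of these movements was not tested. The DNA replication median reached 1.24 and the interferon median 1.42. No paired analysis was possible because each group is 1 sample. Counts near 0 in B16F10 limit the size of the largest ratios, and the 3 and 5 cells of the smaller lineages limit their values.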
